A study of Schizosaccharomyces pombe with 6 samples.

Results

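Contacts between the ribosomal DNA (rDNA) and the rest of the chromosomes were followed in fission yeast arrested in G1, G2 and M phase. The rDNA was taken as the 19 AseI fragments of chromosome III whose midpoint lay in the left block, III:1-23379, or the right block, III:2439432-2452883, which together hold 36.8 kb of assembled sequence. A partner was any other nuclear fragment whose deposited annotation held no LTR, transposable element, rRNA or tRNA, and pairs of neighbouring fragments were not counted. Of 9464 nuclear fragments listed, 8999 could be partners by this rule (11563.8 kb), 446 were left out by their annotation, and the rest were the rDNA itself.

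Genome Conformation Capture (GCC) joins DNA ends that lie close together in cross-linked cells and counts the read pairs that span 2 restriction fragments. The G1 phase cells were strain MY291 carrying cdc10-129, the G2 phase cells MY284 carrying cdc25-22 and the M phase cells MY286 carrying nuc2-663, each in an h- background with the leucine marker that the methods write as lue1. All cultures grew in EMM2 and were held at 36°C for 4 h, so the heat shift was shared by every group and no unarrested culture enters the comparison. Each phase had 2 biological replicates, whose counts are pooled in the table analysed, and the methods judged M phase synchrony to be lower than that of the other phases. Phase, strain and library preparation cannot be told apart.

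The rDNA encodes the 18S, 5.8S and 28S ribosomal RNAs, which RNA polymerase I transcribes in the nucleolus. In *S. pombe* the repeats stand in tandem at both ends of chromosome III, and the genome assembly holds only a few copies of them. The mitosis of fission yeast is closed, the nuclear envelope stays in place, and the nucleolus divides with the nucleus.

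The sequences that carry these measurements are shown first, because they set which contacts can be placed. The capitals mark the AseI sites, ATTAAT, where fragments are cut and joined. They were read from chromosome III of the RefSeq genome of build ASM294v3, in which all 1765 listed fragments of that chromosome end on AseI sites at the coordinates of the tables. The shortest repeated rDNA fragment lies in the middle of the 18S gene, which encodes the small-subunit rRNA (III:11278-11387, forward strand) and is present in 5 identical copies.
rDNA small-subunit middle fragment: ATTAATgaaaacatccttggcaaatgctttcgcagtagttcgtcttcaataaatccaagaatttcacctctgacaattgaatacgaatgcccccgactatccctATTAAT
The left edge of the repeated region, 1 fragment past the block as the rule sets it (III:24619-24744, forward strand), and the right edge (III:2439370-2439495, reverse strand) are mirror images that match at 87.3% of 126 bp.
left rDNA edge: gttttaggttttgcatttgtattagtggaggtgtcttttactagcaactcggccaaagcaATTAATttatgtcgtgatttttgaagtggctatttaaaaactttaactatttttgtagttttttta
right rDNA edge: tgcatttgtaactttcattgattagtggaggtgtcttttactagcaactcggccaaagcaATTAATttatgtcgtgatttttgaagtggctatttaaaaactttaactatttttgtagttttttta
The partner of 288 bp beside the left block (III:27111-27404 with its AseI sites, forward strand) has the same sequence, base for base, as its mirror beside the right block (III:2436710-2437003, reverse strand), so it is printed 1 time.
left partner: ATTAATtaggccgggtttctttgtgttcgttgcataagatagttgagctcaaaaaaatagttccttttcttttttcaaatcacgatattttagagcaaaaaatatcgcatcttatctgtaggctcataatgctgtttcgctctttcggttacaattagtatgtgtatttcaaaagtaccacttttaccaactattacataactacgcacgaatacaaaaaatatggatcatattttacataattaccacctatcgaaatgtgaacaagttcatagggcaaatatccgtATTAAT
Reads from such mirrored or repeated fragments cannot be told apart. None of the partners shared a 50 bp stretch with the rDNA, and 8613 of the 8999 had no 50 bp stretch found elsewhere in the nuclear genome (called repeat-free here).

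rDNA contacts with partners were fewer in G2 than in G1 and fewest in M phase. They numbered 68571 counts in G1, 52163 in G2 and 30630 in M phase, from networks of 2056860, 2196581 and 2119634 counts between non-adjacent nuclear fragments. Their share of the network was 3.33% in G1 (95% Wilson interval 3.31 to 3.36), 2.37% in G2 (2.35 to 2.39) and 1.45% in M phase (1.43 to 1.46). These intervals, like all others given here, cover counting error only, since replicates are pooled and amplified copies of a molecule count as separate reads. No test between replicates was possible.

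Contacts within the rDNA and with the fragments left out by annotation did not follow the same order, whereas mitochondrial contacts did. Counts within the rDNA were 735900 in G1, 700788 in G2 and 766986 in M phase, and these contacts alone made up 35.8%, 31.9% and 36.2% of the network. Counts between the rDNA and the fragments left out by annotation were 44773, 55845 and 44023, highest in G2. Between the rDNA and mitochondrial DNA, which lies outside the nucleus, there were 5216 counts in G1, 4428 in G2 and 3340 in M phase. The ratio of partner to these mitochondrial counts was 13.1 in G1, 11.8 in G2 and 9.17 in M phase. M phase thus held 0.447 of the partner counts of G1 and 0.640 of its mitochondrial counts. The control plasmids were joined to the rDNA by 2, 2 and 0 counts. How many partner counts came from ligation outside cross-linked complexes was not tested.

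Contacts were spread thinly over the genome. There were 35774 different pairs in G1, 28154 in G2 and 20099 in M phase, and 61.3%, 62.0% and 72.2% of them had a single count. Pairs with at least 3 counts, the cut-off of the study, made up 20.2% of pairs in G1, 19.6% in G2 and 11.9% in M phase (7237, 5527 and 2384 pairs). Among all non-adjacent nuclear pairs, the rDNA pairs included, that share was 17.9% in G1, 19.3% in G2 and 16.2% in M phase. The share among rDNA pairs thus lay above this background in G1, near it in G2 and below it in M phase. The largest count of any pair was 52 in G1, 30 in G2 and 35 in M phase.

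Most partners met the rDNA in every phase, whereas most single pairs were not seen in every phase. At least 1 count was found for 7943 partners in G1, 7730 in G2 and 6936 in M phase. Of the 8566 partners seen in any phase, 6256 (73.0%) were seen in all 3. Of the 53933 pairs seen in any phase, 8449 (15.7%) were seen in all 3. Most pairs had a single count, and identical rDNA copies cannot be told apart. The same share was not taken over the whole network, so it is not shown that partners changed their pairs. The 433 partners never counted were short, with a median length of 51 bp and none over 1 kb.

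The chromosomes shared the rDNA contacts almost in proportion to their length in G1 and G2, and chromosome III took more in M phase. Chromosome III holds 18.3% of the partner sequence. It received 18.0% of the partner counts in G1 (17.7 to 18.3), 17.9% in G2 (17.6 to 18.2) and 20.8% in M phase (20.3 to 21.2). Per kb, chromosome III had 0.982 of the density of the other chromosomes in G1 (0.963 to 1.00) and 0.975 in G2 (0.953 to 0.997). In M phase it had 1.17 times their density (1.14 to 1.20). Chromosomes I and II differed little from each other, with 5.95 and 5.95 counts per kb in G1, 4.54 and 4.52 in G2, and 2.55 and 2.59 in M phase.

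**Figure D1:**
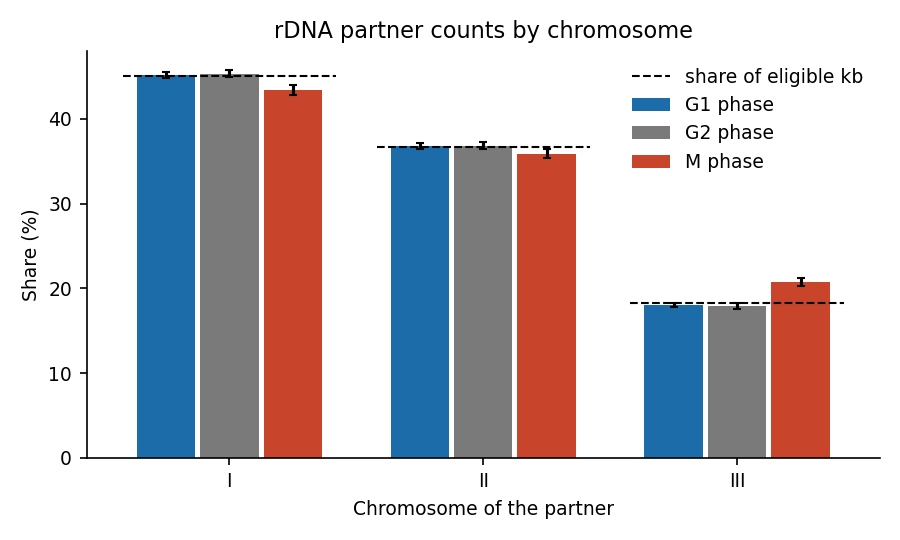
Share of rDNA partner counts (%, bars from 0) that fell on each chromosome in each phase, with 95% Wilson intervals as error bars and the share of partner sequence as dashed lines. In M phase the bar of chromosome III reaches 20.8%, above its 18.3% of the sequence, and the bars of chromosomes I and II lie below their lines.

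Whether this shift is seen among partners rather than counts depends on the unit counted. Partners on chromosome III were 1422 of 7943 in G1 (17.9%), 1375 of 7730 in G2 (17.8%) and 1333 of 6936 in M phase (19.2%). Of all 8999 partners, counted or not, 1611 lie on chromosome III. The partners counted were 88.3%, 85.9% and 77.1% of the 8999 in G1, G2 and M, so this share has little room to move. With two-sided Fisher's exact tests and Benjamini-Hochberg adjustment over the 3 pairs of phases, M phase was 1.43 percentage points above G2 (adjusted p = 0.0603) and 1.32 points above G1 (adjusted p = 0.0603), so neither difference passed a threshold of 0.05. From G1 to G2 the share changed by -0.115 points (adjusted p = 0.867, Fisher's exact test). When a contact of a partner with each type of rDNA fragment was counted 1 time, a unit chosen after seeing the data, chromosome III held 20.7% of contacts in M phase against 17.6% in G2 (adjusted p = 7.39e-11) and 18.0% in G1 (adjusted p = 2.41e-09) by the same exact test. Each of these tests compares 2 pooled tables, not replicated cultures. They also treat the 2 phases as independent samples, although 6256 of the 8566 partners seen in any phase were seen in all 3. Their p-values ignore this overlap.

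Along chromosome III, M phase contacts were denser toward the rDNA, whereas G1 and G2 contacts were slightly fewer near it. Within 20 kb of a block there were 6.60 counts per kb in M phase, against 5.12 in G1 and 3.72 in G2, although M phase had the fewest rDNA contacts elsewhere. In M phase the density was 3.61 per kb from 20 to 100 kb, 3.37 from 100 to 400 kb and 2.76 beyond 400 kb, while chromosomes I and II had 2.57 per kb. Relative to chromosomes I and II these densities were 2.57 (2.18 to 3.01), 1.41 (1.28 to 1.54), 1.31 (1.25 to 1.38) and 1.07 (1.04 to 1.11). The excess was thus steepest next to the rDNA and small beyond 400 kb.

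In G1 the same 4 distances had 5.12, 5.17, 6.01 and 5.86 counts per kb, and in G2 3.72, 4.03, 4.38 and 4.48. The lowest densities in both phases therefore lay within 100 kb of the rDNA. Taken as a ratio of partners within 100 kb to the rest of chromosome III, the density was 0.874 in G1 (0.814 to 0.939), 0.896 in G2 (0.825 to 0.971) and 1.39 in M phase (1.28 to 1.51). The intervals of G1 and G2 overlap each other and not that of M phase. With pairs of at least 3 counts alone, the cut-off of the study, the ratio in M phase was 1.17 (0.995 to 1.36), so the excess was then within counting error.

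**Figure D2:**
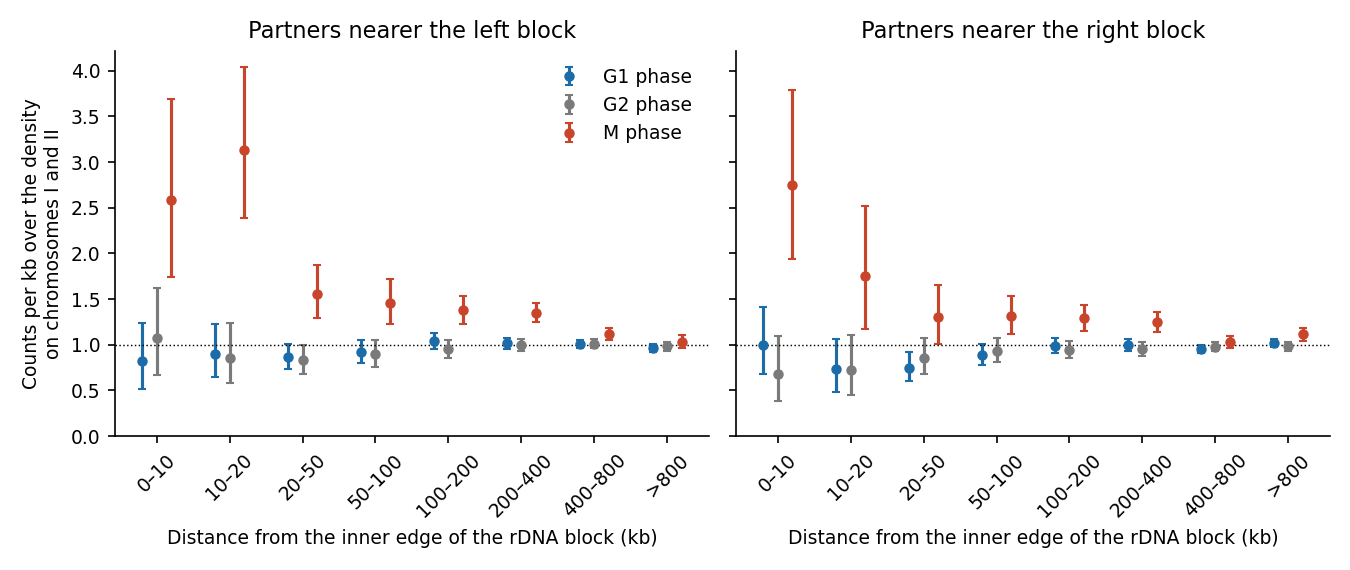
Counts per kb in each distance bin, divided by the density on chromosomes I and II of the same phase (dotted line at 1), against distance from the inner edge of the left and of the right rDNA block in kb; bars are 95% exact intervals of counting error. M phase points lie above 1 up to 400 kb on both sides, and those of G1 and G2 lie near or below it.

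Both blocks showed the M phase gradient. Partners nearer the left block had 7.52, 3.86, 3.49 and 2.76 counts per kb at the 4 distances, and partners nearer the right block 5.66, 3.37, 3.24 and 2.75. The repeats at both ends share sequence, so distance here means distance to the nearer block, whichever block made the contact.

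The difference between phases near the rDNA was tested on different contacts, in a comparison added after seeing the data. Contacts within 100 kb were 268 of the 3699 on chromosome III in G1 (7.25%), 199 of 2926 in G2 (6.80%) and 285 of 2777 in M phase (10.3%). The M phase share was higher than that of G2 by 3.46 points (odds ratio 1.57, adjusted p = 8.99e-06, Fisher's exact test, two-sided) and than that of G1 by 3.02 points (odds ratio 1.46, adjusted p = 2.88e-05). The shares of G1 and G2 were not shown to differ (adjusted p = 0.499, Fisher's exact test). Among repeat-free partners both M phase differences had an adjusted p of 0.000318. Among partners of at least 1 kb it was 0.0380 for both, the largest in any form tried. These tests also treat the phases as independent, although the same partners can be counted in both.

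Fragment length moved with the gradient. Partners of at least 1 kb had M phase densities of 1.50 (1.14 to 1.93), 1.32 (1.191 to 1.46), 1.28 (1.21 to 1.35) and 1.05 (1.01 to 1.09) times those of such partners on chromosomes I and II. Partners under 1 kb had ratios of 4.55 (3.67 to 5.56), 2.01 (1.62 to 2.48), 1.44 (1.30 to 1.60) and 1.16 (1.08 to 1.26). The nearest 20 kb hold only 6 partners of at least 1 kb. Across all partners, those under 50 bp had 9.90 counts per kb in M phase, 4.06 in G1 and 2.19 in G2, whereas partners of 2 to 4 kb had 2.57, 5.60 and 4.31. Partners under 50 bp were the one length class in which M phase density exceeded that of both other phases. The part of fragment length in the gradient was not tested beyond these splits.

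The 29 partners within 20 kb of the rDNA were mostly higher in M phase, by small counts. They had 121 counts in G1, 88 in G2 and 156 in M phase. Of the 29, 16 (55.2%) had more counts in M phase than in either other phase, against 5.61% of all 8999 partners, 7 had fewer in M than in G1, and 4 were at 0 in every phase. Those 4 were 33 bp long or shorter, and a count of 0 allows up to 3 counts.

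The partner next to the right block, III:2438717-2439431 (715 bp), had 6 counts in G1, 1 in G2 and 15 in M phase. It lies just inside the rule that chose partners, and its mirror beside the left block was left out because its annotation names an rRNA. The 288 bp partner whose sequence is printed above had 1, 3 and 8 counts beside the left block (III:27113-27400) and 4, 1 and 5 counts at its mirror (III:2436712-2436999). Both copies were highest in M phase, and since their sequences are the same a count cannot be assigned to one copy or the other.

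The longer mirrored pair next to them went the other way. III:27401-30080 (2680 bp) had 14 counts in G1, 12 in G2 and 10 in M phase. Its mirror III:2434032-2436711, which matches it at 99.8% of bases, had 15, 8 and 4. Neither exceeded G1 in M phase, and both carry an annotated gene without a common name.

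Farther out, III:41609-42484 (876 bp) had 3 counts in G1, 0 in G2 and 12 in M phase, and III:40738-41493 (756 bp, repeat-free) had 6, 1 and 11. III:30081-31616 (1536 bp) had 7, 7 and 12. The longest partner of the group, III:2423095-2428029 (4935 bp), was level at 18, 18 and 16. Single partners here rest on few counts. Summed over the 29, the density in M phase (6.60 per kb, 5.61 to 7.72) had an interval that overlapped that of G1 (5.12, 4.25 to 6.12) and not that of G2 (3.72, 2.99 to 4.59).

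**Figure D3:**
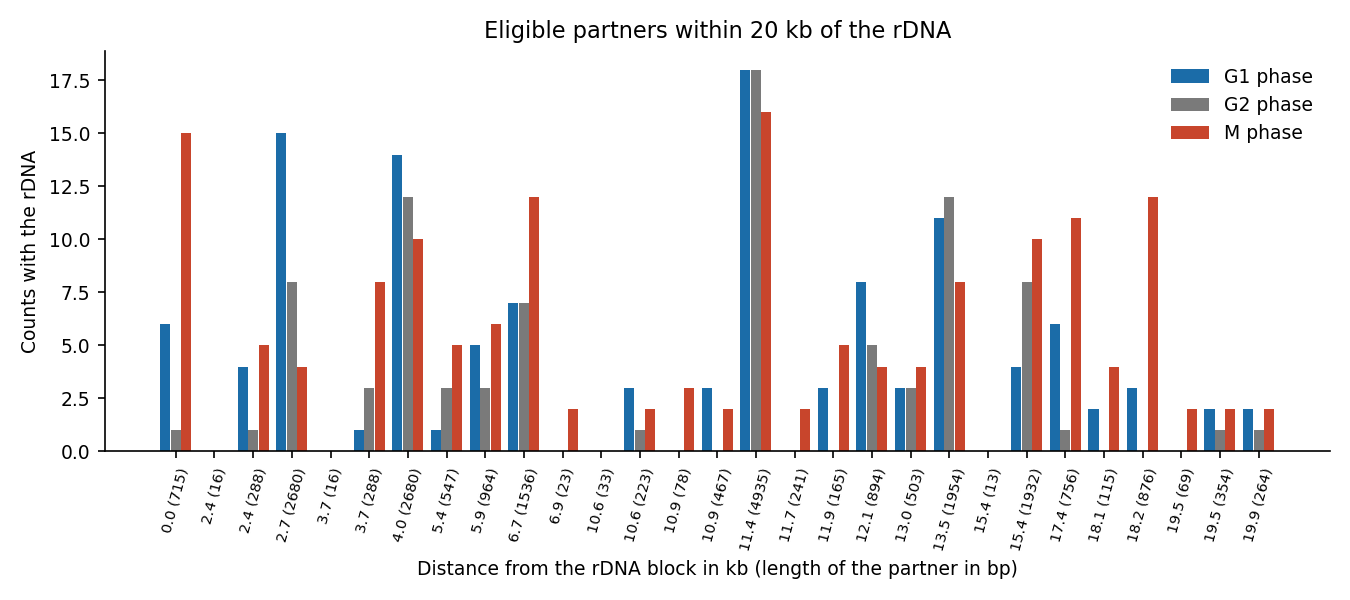
Counts with the rDNA (bars from 0) in G1, G2 and M for each of the 29 partners within 20 kb, ordered by distance from the rDNA block in kb with the length in bp in brackets. M phase bars are the tallest for 16 partners, and the longest partner, of 4935 bp, has 18, 18 and 16 counts.

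The rule cuts through sequence related to the rDNA on the left side. III:23380-24680, whose midpoint lies just past 24000, shares 1175 of its 50 bp stretches with the rDNA and had 1569, 1681 and 929 counts with partners in G1, G2 and M. III:22254-23379, just inside, had 1954, 1269 and 795. Counting the outer fragment as rDNA as well moved the ratio of partners within 100 kb to the rest of chromosome III to 0.963 in G1, 1.12 in G2 and 1.52 in M phase. The intervals were 0.899 to 1.03 in G1, 1.04 to 1.199 in G2 and 1.41 to 1.64 in M phase, so that the deficit in G1 was within counting error, G2 turned to an excess and M phase stayed highest. On the right side, III:2439432-2440745 is the first fragment inside the rDNA, with 1856, 1319 and 891 counts.

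The M phase gradient was also set against contacts of another repeated source. Centromere fragments of chromosomes I and II, counted with the same repeat-free partners of chromosome III that lie over 100 kb from its own centromere, had ratios of density within 100 kb of the rDNA to the rest of 0.910 in G1 (0.688 to 1.18), 1.03 in G2 (0.777 to 1.35) and 1.15 in M phase (0.864 to 1.49). For the rDNA the ratios were 0.870 (0.804 to 0.940), 0.912 (0.834 to 0.995) and 1.34 (1.22 to 1.46). In M phase 359 rDNA pairs were near and 3095 far, against 58 and 625 centromere pairs. Identical rDNA copies count as separate pairs here, so the rDNA pairs are not all independent. The share of near pairs did not pass a two-sided Fisher's exact test between the sources in G1, G2 or M phase (adjusted p = 0.942, 0.942 and 0.432). The gradient is therefore not shown to be particular to contacts made by the rDNA.

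The ends of chromosomes I and II, which carry telomeres and no rDNA in this assembly, had no such M phase excess among repeat-free partners. Repeat-free partners within 100 kb of the rDNA had 3.90 counts per kb in M phase (3.57 to 4.25), against 2.52 (2.23 to 2.84) within 100 kb of the ends of chromosome I and 2.38 (2.10 to 2.69) for chromosome II. In G1 the order was turned, with 5.11 on chromosome III, 6.58 on I and 5.89 on II. In G2 the densities were 4.03, 4.73 and 4.73.

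Along chromosomes I and II most windows lay close to the median of their chromosome. In windows of 100 kb, chromosome I ranged from 5.33 to 9.36 counts per kb in G1, from 3.87 to 6.82 in G2 and from 2.05 to 4.18 in M phase, with medians of 5.90, 4.51 and 2.52. The highest window of chromosome I was its first, I:1-100000, in every phase. On chromosome II the window II:1600001-1700000, which holds the centromere, was highest in G1 (7.33) and G2 (5.72), and II:500001-600000 in M phase (3.36). In M phase the centromere window of chromosome II had 3.35, and II:2100001-2200000 and II:1200001-1300000, which lie in the arms, had 3.27 and 3.23. The first and last windows of chromosome II had 2.59 and 2.39 in M phase, against a median of 2.57. On chromosome III the window III:1-100000 was lowest in G1 (5.16) and G2 (3.82) and highest in M phase (4.30). The variance among windows over that of counting alone was 4.37, 3.59 and 3.42 on chromosome I, 2.19, 1.68 and 3.20 on chromosome II, and 1.20, 1.20 and 5.85 on chromosome III, so chromosome III was the most even in G1 and G2 and the least even in M phase.

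**Figure D4:**
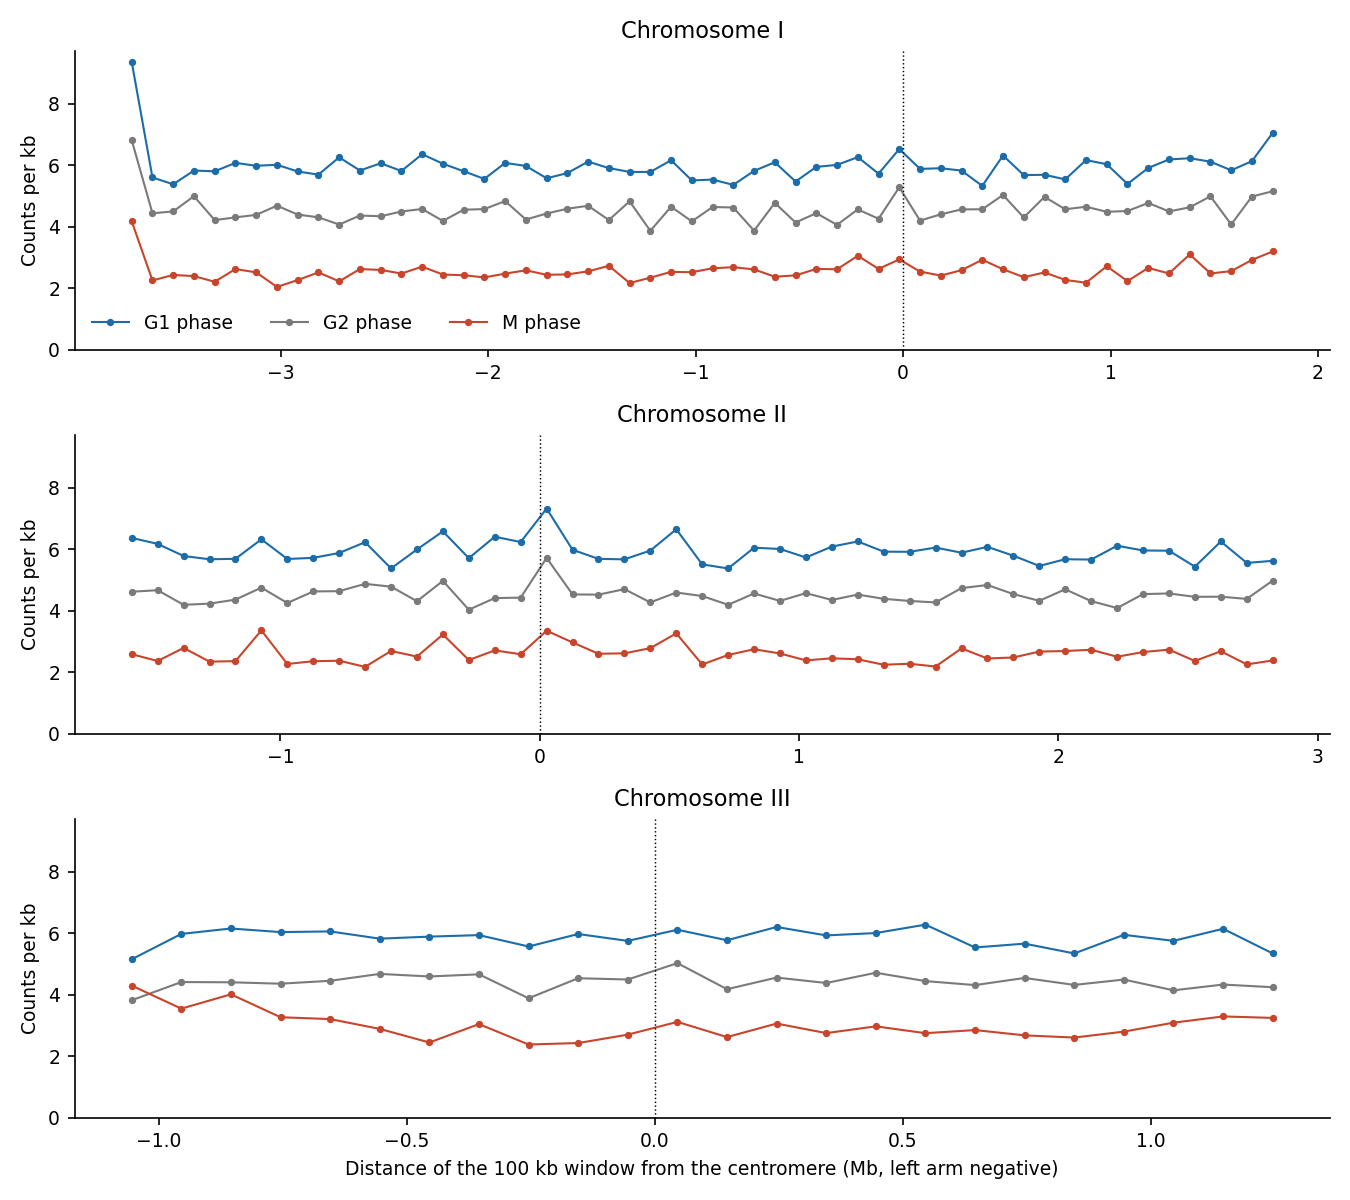
Counts per kb of partner sequence in 100 kb windows (points, joined by lines) against distance of the window from the centromere in Mb, for each chromosome and phase, with the dotted line at the centromere. The first window of chromosome I stands above the rest at 9.36, 6.82 and 4.18, and on chromosome III the M phase line is higher toward both rDNA blocks.

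Next to the telomeres, where the fragments hold repeated sequence, the density was high on chromosome I and not at every end of chromosome II. Pooled over the ends of both chromosomes, it was within 10 kb 13.8 counts per kb in G1, 10.5 in G2 and 8.57 in M phase, over 30 partners of which none was repeat-free. From 10 to 20 kb it was 7.73, 6.13 and 3.32, and from 20 to 50 kb 6.07, 4.71 and 2.40, near the level of the arms. The left arm of chromosome I led, with 16.7, 13.0 and 9.04 counts per kb in its last 20 kb. Relative to the whole of chromosomes I and II, the last 20 kb of the right end of chromosome II had 1.06 in G1 (0.883 to 1.27), 1.07 in G2 (0.867 to 1.32) and 1.02 in M phase (0.756 to 1.34), and the left end of chromosome II had 1.02 in G1 (0.826 to 1.26), 1.30 in G2 (1.04 to 1.60) and 1.39 in M phase (1.05 to 1.82).

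A single fragment held a large part of that. I:1-6472, which carries tlh1, a gene for a RecQ-type helicase found beside telomeres, had 167 counts in G1, 111 in G2 and 113 in M phase, or 25.8, 17.2 and 17.5 per kb. The next one, I:6473-9712, had 56, 49 and 25. The density within 100 kb of the ends over that of the arms was 1.20 in G1 (1.16 to 1.26), 1.189 in G2 (1.13 to 1.25) and 1.20 in M phase (1.13 to 1.28). Counted per partner fragment in place of per kb, the ratios turned to 0.925 (0.887 to 0.963), 0.912 (0.870 to 0.956) and 0.922 (0.866 to 0.982). Among repeat-free partners the ratios were 1.06 (1.00 to 1.12), 1.05 (0.987 to 1.12) and 0.971 (0.889 to 1.06), so most of the excess lay in partners with repeated sequence. Reads of such partners can belong to other copies.

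At the centromeres the excess was smaller. Partners within 100 kb of the centromeres of chromosomes I and II had 1.07 times the density of the arms in G1 (1.03 to 1.11), 1.06 times in G2 (1.01 to 1.11) and 1.15 times in M phase (1.08 to 1.21). Without the partners that lie wholly inside the annotated centromeres, I:3752494-3784537 and II:1600909-1645890, the ratios were 1.02 (0.975 to 1.06), 0.990 (0.943 to 1.04) and 1.08 (1.01 to 1.15). The excess in G1 and G2 lay inside the centromeres, where most partners hold repeated sequence. The partners that lie in or directly beside a centromere, 27 on chromosome I and 40 on chromosome II, had 7.91 counts per kb on chromosome I and 8.53 on chromosome II in G1, 6.31 and 6.85 in G2, and 4.13 and 3.89 in M phase. The centromere of chromosome III (III:1070502-1138935) had 6.44, 6.36 and 4.01 counts per kb, and only 3 of its 39 partners were repeat-free. The 19 repeat-free partners in or directly beside centromeres I and II showed no such excess. They had 6.10 counts per kb in G1 (4.36 to 8.31), 3.81 in G2 (2.47 to 5.63) and 2.44 in M phase (1.39 to 3.96). Chromosomes I and II as a whole had 5.95, 4.53 and 2.57.

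Named gene groups lay near the level of all partners, which was 5.93 counts per kb in G1, 4.51 in G2 and 2.65 in M phase. The 49 partners with genes for RNA polymerase I subunits and its factors, which transcribe the rDNA, had 5.98 (5.46 to 6.53), 4.54 (4.09 to 5.03) and 2.40 (2.08 to 2.76). The 167 partners with cytosolic ribosomal protein genes had 5.77 (5.54 to 6.01), 4.20 (4.00 to 4.40) and 2.45 (2.30 to 2.60). The 74 partners with snoRNA and snRNA genes, whose products guide rRNA modification and splicing, had 5.66, 4.46 and 2.61. By these intervals the genes that serve the ribosome were not above the genome level, and ribosomal protein genes lay slightly below it in G2 and M phase. Ribosomal protein partners are long ones, spanning 413.6 kb over 167 fragments. All partners of 2 to 4 kb had 4.31 in G2 and 2.57 in M phase, inside the intervals of that group.

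Histone genes (18 partners) had 7.18 (6.18 to 8.30), 4.70 (3.90 to 5.61) and 2.72 (2.12 to 3.43) counts per kb, above the genome level in G1 alone by these intervals. The mating-type region (22 partners), which holds the mat1 and mat3 loci and heterochromatin, had 7.16 (6.17 to 8.26), 4.25 (3.49 to 5.12) and 3.75 (3.05 to 4.57). The wtf genes (55 partners), a family that includes meiotic drivers and lies mainly on chromosome III, had 6.27 (5.63 to 6.97), 4.66 (4.11 to 5.27) and 3.38 (2.91 to 3.91). In M phase both of the last groups lay above the 2.65 of all partners. However, 51 of the 55 wtf partners lie on chromosome III, whose own M phase density of 3.01 is inside their interval, and a single partner, II:2107846-2117276, held 52 of the 98 counts of the mating-type region, where the median of partners of at least 500 bp was 2.20 per kb. These groups were chosen with earlier results of these data known, and no test was made of them.

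Members of the groups varied around these levels. II:1235351-1241466 with rrn11, an RNA polymerase I initiation factor gene, had 41 counts in G1, 28 in G2 and 14 in M phase, and II:2757828-2762408 with rrn7, another such factor, had 25, 18 and 14. II:1365791-1371400 with hht2 (histone H3) had 42, 28 and 12, and I:4044496-4050052 with hta2 (histone H2A) had 36, 23 and 15. All of these had fewer counts in M phase than in G1, as the whole did.

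III:534746-543979 with the ribosomal protein gene rpl35A01 had 55, 35 and 29 counts, and III:505635-513633 with rpl3601 had 50, 40 and 19. III:245459-248153 with wtf5 had 14, 17 and 12, a smaller difference. In the centromeres, I:3756526-3762363 had 50, 44 and 30 counts, and III:1111195-1115646 had 37, 42 and 30. The centromere partners thus kept more of their counts in M phase than the genome did, but both hold repeated sequence.

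The partners with the most counts were mostly long fragments rather than dense ones. On chromosome I, I:1532207-1545430 had 70, 55 and 38 counts in G1, G2 and M (5.29, 4.16 and 2.87 per kb) and carries utp14, which acts in the processing of the small subunit rRNA, and pabp, a poly(A)-binding protein gene. I:3979712-3988965 with pfl2 had 65, 53 and 36 counts, and I:5417844-5427693 with sec16, which acts in export from the endoplasmic reticulum, and clr5, which acts in silencing, had 56, 45 and 27. Per kb the first and the last of these lay close to the genome level, while the partner with pfl2, which holds repeated sequence, had 3.89 in M phase (2.72 to 5.39) against 2.65 over all partners.

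On chromosome II the counts of some partners held up in M phase. II:1745842-1755710 with scr1, a repressor of glucose-repressed genes, had 70 counts in G1, 53 in G2 and 69 in M phase, which is 6.99 per kb in M phase (5.44 to 8.85) against 2.65 over all partners. It lies 99.951 kb from the centromere and is repeat-free. II:3856626-3868713 with ssn6, a corepressor gene, had 86, 67 and 61 counts, II:1290241-1301034 with dip2, another gene of small subunit rRNA processing, had 65, 50 and 49, and II:2196315-2202649 with eno101 (enolase) had 56, 50 and 41. All 4 were above 4 counts per kb in M phase. These partners, like the others named for most counts, were chosen by their mean share over the 3 phases, M phase included. High M phase values among them are therefore partly set by that choice.

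II:2107846-2117276, which holds the mating-type locus mat1, had 64 counts in G1, 27 in G2 and 52 in M phase. Its G2 density of 2.86 per kb (1.89 to 4.17) lay below the 4.51 of all partners, and its M phase density of 5.51 (4.12 to 7.23) above their 2.65. The locus shares sequence with the silent mating-type cassettes, so reads of these copies cannot be told apart.

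On chromosome III the partners with the most counts were far from the rDNA. III:854074-871844, the longest of them, with prp28 (a splicing helicase) and utp13 (small subunit rRNA processing), had 80, 53 and 39 counts, and III:828242-840811 had 59, 54 and 26. III:1391784-1400732 with ole1, the fatty acid desaturase, and wtf11 had 66, 39 and 32, and III:1759675-1771465 with ste6, an activator of Ras in mating, had 69, 48 and 20. III:343102-351409 with dis1, a microtubule-binding protein gene, and pil1, an eisosome gene, lies 319.7 kb from the left block and had 51, 40 and 42. Of these 5, the one nearest the rDNA kept the most in M phase. The next nearest, III:1759675-1771465, 668.0 kb from the right block, kept the least, so these 5 do not follow distance.

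Besides the fragments at the left end of chromosome I, the following partners were among the densest of at least 1 kb and were chosen after their values were seen. II:525986-527236 with fhn1 had 35 counts in G1, 13 in G2 and 21 in M phase (28.0, 10.4 and 16.8 per kb) and holds repeated sequence. Among repeat-free partners the highest in G1 was II:4035595-4037645 with gpd1, a glycerol-3-phosphate dehydrogenase gene, with 35, 19 and 17 counts (17.1, 9.26 and 8.29 per kb). In G2 it was I:679038-680287 with rgs1, a regulator of G protein signalling, with 11, 16 and 5 (12.8 per kb in G2). In M phase it was I:5541411-5542822, 30.2 kb from the right end of chromosome I, with 22, 11 and 14 (9.92 per kb in M phase).

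Partners of at least 1 kb differed from each other by little more than counting. Over 3837 repeat-free partners of that length the variance was 1.15, 1.15 and 1.31 times that of counting alone in G1, G2 and M, with medians of 5.60, 4.25 and 2.42 counts per kb. With partners that hold repeated sequence the ratios were 1.35, 1.30 and 1.54 over 4040 partners. Base composition went with small differences in level. Over 4 equal groups of partners of at least 500 bp, from the lowest GC content to the highest, density was 4.86, 4.48, 4.34 and 4.22 in G2 and 2.52, 2.45, 2.64 and 2.81 in M phase.

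On the rDNA side, contacts were made by all parts of the repeat, roughly by length. The 3 fragments that hold the 28S and 5.8S genes and the spacer are 68.4% of the rDNA sequence and made 66.5% of partner counts in G1, 73.0% in G2 and 67.7% in M phase. The 5 fragments with the start of the 18S gene made 15.1%, 12.1% and 13.0%, and the 3 with its end 12.5%, 10.5% and 11.5%. Copies had almost the same counts, such as 15404 and 15476 in G1 for the identical fragments III:1640-10025 and III:12510-20895. Reads of identical copies cannot be told apart.

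The short fragment in the middle of the 18S gene, whose sequence is printed above, had another course across phases than the 28S fragments and those with the 18S start or end. The still shorter fragment of 22 bp at the right outer edge had 19, 2 and 19 counts in G1, G2 and M, so it also held up in M phase, on few counts. Its 5 copies made 1.66% of partner counts in G1 (1.56 to 1.75), 1.03% in G2 (0.943 to 1.12) and 3.19% in M phase (2.996 to 3.39). Counts of single copies in M phase were between 0.820 and 0.903 of those in G1, whereas the 28S fragments had between 0.453 and 0.457. It is 104 bp long. Partners of 100 to 200 bp had 5.80, 6.12 and 3.85 counts per kb in G1, G2 and M, against 5.60, 4.31 and 2.57 for partners of 2 to 4 kb. Such short partners were thus denser than long ones in G2 as well, where the share of this rDNA fragment was lowest. The part of length in its course was not tested.

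Close to the rDNA in M phase, the types of rDNA fragment took other shares than elsewhere. The 28S fragments made 41.0% of counts with partners within 20 kb (33.6 to 48.9), 57.3% from 20 to 100 kb (52.8 to 61.6), 60.0% from 100 to 400 kb (57.7 to 62.3) and 67.9% beyond 400 kb (66.5 to 69.4), while they made 68.6% of counts with chromosomes I and II (68.0 to 69.2). The fragments with the 18S start made 29.5% of counts within 20 kb (22.9 to 37.1) and 12.8% with chromosomes I and II. In G1 and G2 the share of the 28S fragments was not lower toward the rDNA beyond its counting interval. These shares were not tested between phases.

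**Figure D5:**
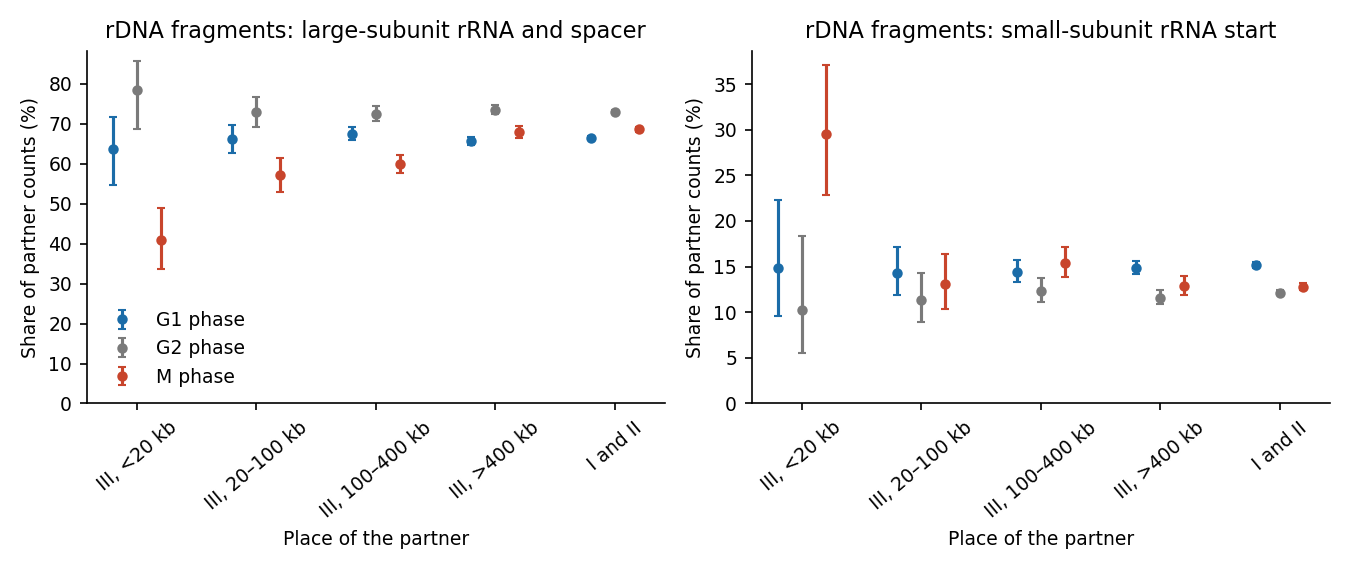
Share of partner counts (%) made by the rDNA fragments with the 28S and 5.8S genes and spacer (large-subunit panel) and with the start of the 18S gene (small-subunit panel), by place of the partner and phase, with 95% Wilson intervals. The M phase share of the 28S fragments is 68.6% on chromosomes I and II and 41.0% within 20 kb of the rDNA, and that of the 18S start is 12.8% and 29.5%.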

How the data were processed

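The authors digested cross-linked chromatin with AseI, ligated it and sequenced 50 bp paired ends. Their Topography suite, which uses SOAP, placed reads without mismatches or unassigned bases on build ASM294v2, and the deposited counts are raw numbers of read pairs for each fragment pair, pooled over both replicates of a phase and without normalization. Ends in repeated sequence are included. The number of sample columns left unused was 0.

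From these counts each pair was used 1 time and pairs of neighbouring fragments were dropped. Density is the sum of counts over all rDNA fragments divided by kb of partner. Intervals at 95% were Wilson for shares and exact Poisson or conditional binomial for densities and ratios. Fisher's exact tests were two-sided with Benjamini-Hochberg adjustment over the 3 pairs of phases or the 3 phases. A fragment was called repeat-free by its 50 bp stretches in the reference, and gene names came from the annotation of that reference, matched by AseI ends. Coordinates are printed as deposited. A fixed shift was allowed in matching fragments to the reference, and chromosome III needed none. The code was checked on simulated data (Python 3.11.15, numpy 2.4.6, pandas 2.3.3, scipy 1.17.1, matplotlib 3.10.9, Biopython 1.88).

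Partners named are the 5 of each chromosome with the highest mean share of network counts and at least 1 count in every phase, the 3 nearest each block, and the top 2 of each gene list. The members and lists were chosen with earlier results of these data known. The alternatives tried were collapsed rDNA copies, repeat-free partners, pairs with at least 3 counts, other distances and other units.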

Additional observations from a re-analysis of the deposited data

Results flagged for a closer look

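The share of chromosome III contacts that lay within 100 kb of the rDNA differed between phases by a test of the difference itself, added after seeing the data. It was 3.46 percentage points higher in M than in G2 and 3.02 points higher in M than in G1 (adjusted p = 8.99e-06 and 2.88e-05, two-sided Fisher's exact test on different contacts). Each phase is 1 pooled table, so the spread between cultures does not enter, and the test treats the phases as independent. With pairs of at least 3 counts alone, the M phase excess in density near the rDNA was within counting error.

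rDNA contacts with mitochondrial DNA, which lie outside the nuclear partners and were not tested between phases, numbered 5216 counts in G1, 4428 in G2 and 3340 in M phase, above the 3 counts that a count of 0 allows.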

How the results depend on the processing

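No paired analysis was possible because the tables pool both replicates of a phase, and for the same reason no replicate was left out in turn. Depth limits single partners near the rDNA, since none within 20 kb had more than 18 counts in any phase. Of 120 alternative values, 78 kept their side and size, 29 moved beyond the counting interval, 4 newly passed the threshold and 9 changed direction. The cause of these changes was not tested.

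Counting identical rDNA copies as 1 lowered the partner share of the network to 2.74%, 1.96% and 1.24% in G1, G2 and M, and repeat-free partners alone gave 3.12%, 2.22% and 1.34%. The share of chromosome III became 17.6%, 17.3% and 20.1% with repeat-free partners, and 19.2% in M phase by different partners. Between phases, its difference passed the threshold by different contacts (M above G2 3.05 points, above G1 2.64) and by read counts (2.84 and 2.73), units chosen after seeing the data, and G2 lay 0.330 points above G1 with pairs of at least 3 counts.

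The ratio of density within 100 kb of the rDNA to the rest of chromosome III was 0.794 in G1 (0.713 to 0.883) and 1.17 in M phase (0.995 to 1.36) with pairs of at least 3 counts, so the M phase excess was then within counting error. It was 1.204 in M phase with partners of at least 1 kb and 1.58 in M phase within 50 kb. With the fragment just outside the rule it was 0.963, 1.12 and 1.52, so G2 turned and the G1 deficit was within counting error (0.899 to 1.03). By read counts the share near the rDNA in G2 lay 0.152 points above G1.

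The centromere ratio with repeat-free partners was 1.03, 0.994 and 1.07, without fragments inside centromeres 1.02, 0.990 and 1.08, and within 50 kb 1.13 in G1 and 1.14 in G2, so the G2 excess was lost in the first 2 of these. The ratio at the ends of chromosomes I and II was 1.06, 1.05 and 0.971 with repeat-free partners, 1.14 in G1 and 1.09 in M phase without the partner with the most counts, and 1.33, 1.35 and 1.46 within 50 kb. Counted per partner fragment in place of per kb it fell below 1 in every phase, to 0.925, 0.912 and 0.922.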

Other observations

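A fragment of 42 bp near the left end of chromosome II, II:36990-37031, singled out after its values were seen, had 0 counts with the rDNA in G1 and G2 phase and 12 in M phase. These came from 7 pairs with at most 3 counts each, and 7 of the counts were with the start of the 18S gene. A count of 0 allows up to 3 counts in each of the other phases.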
